A study of Mus musculus with 4 samples.

Results

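The 29 genes described here encode enzymes of sterol and fatty acid synthesis and the regulators of those enzymes, the sterol regulatory element binding proteins (SREBPs). They were chosen by symbol for these known roles, but with earlier results of these data known. All 29 were found among the 24062 genes in the counts. Each of the 29 passed the filter on low counts, which left 15762 genes for the test. RNA-seq was done on retinas of E13.5 mouse embryos of a mixed C57BL/6 and 129 background, with 2 wildtype libraries (WT) and 2 *Nrf1* f/f;Six3-Cre libraries (Nrf1-CKO). *Nrf1* encodes nuclear respiratory factor 1, a transcription factor. In the Nrf1-CKO retinas, Cre driven by the *Six3* transgene removed the floxed exon 4 of *Nrf1* in retinal progenitors, from the central retina outward, so cells at the periphery may keep the gene. Each library held pooled retinas of several embryos, and the p-values measure the spread between 2 such pools per genotype. The labels call the control embryos wild type and give no floxed or Cre allele for them.

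Cells make cholesterol from acetyl-CoA in a long chain of steps: the mevalonate pathway builds isoprenoid units, squalene is assembled from them and closed into lanosterol, and lanosterol is trimmed to cholesterol. The SREBPs are made as membrane proteins, held in the endoplasmic reticulum with Scap by the Insig proteins when sterol is plentiful. When sterol is short they are cut, and their released part switches on the genes of sterol synthesis, sterol uptake and fatty acid synthesis. Neural tissue, the brain above all, makes most of its own cholesterol.

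Of the 29 genes, 16 fell in Nrf1-CKO retinas and none rose, where a call needed an adjusted p of at most 0.2 in edgeR's quasi-likelihood test together with a change of 1.4-fold or more. Across all genes tested, 8.04% were called lower and 12.8% higher. The median log2 fold change was -0.52 over the 29 genes and 0.00073 over all genes tested. The summed level of the 29 genes was 6528 and 6326 CPM, the read count relative to the TMM-scaled library size, in the WT libraries and 4645 and 4435 CPM in the Nrf1-CKO libraries, a mean of 70.6% of WT. At an adjusted p of at most 0.2 and any fold, 26 of the 29 were lower, against 19.5% of all genes tested. Both Nrf1-CKO libraries were below both WT libraries for 26 of the 29, while the genotypes were separated, in either direction, for 62.5% of all genes tested. The other three, *Pmvk*, *Scap* and *Insig2*, had overlapping genotypes. In the same libraries 9 of 10 ganglion cell markers fell, and all 11 lens markers tested and all 10 macrophage and microglia markers rose.

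**Figure D1:**
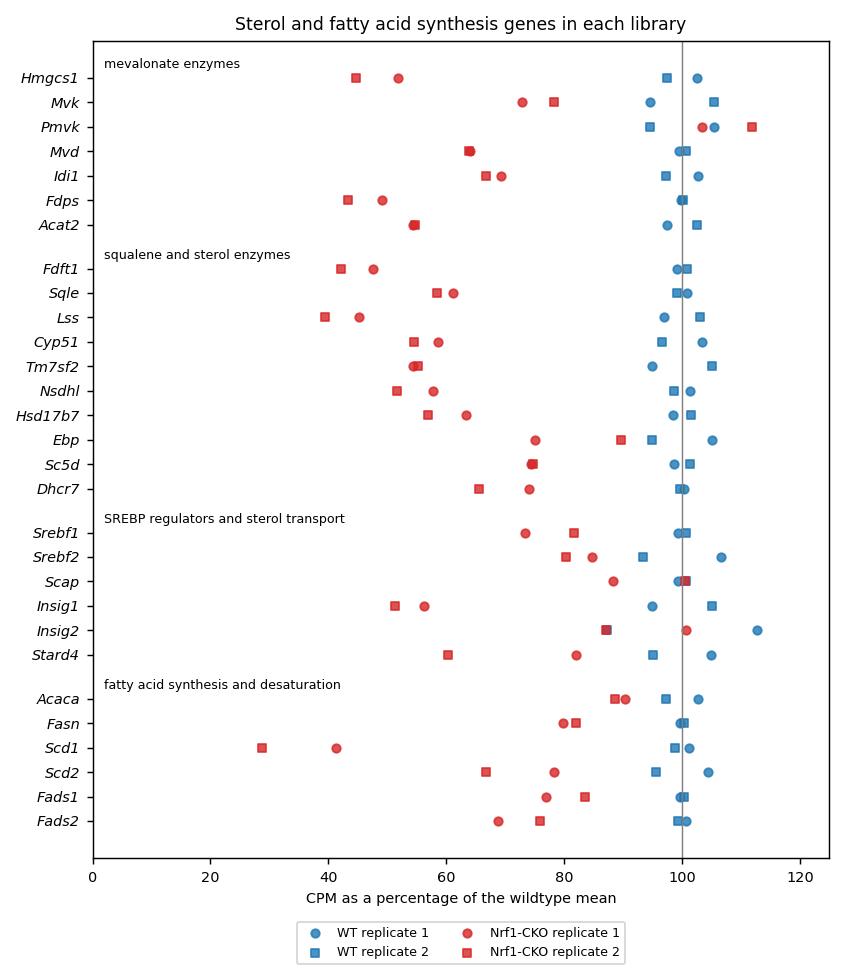
CPM of each of the 29 genes in the 4 libraries, as a percentage of its WT mean, with WT in blue and Nrf1-CKO in red, grouped by role. The Nrf1-CKO libraries lie left of the WT libraries for 26 genes, and the points overlap for Pmvk, Scap and Insig2.

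The DNA before the transcription start of 22 of the 29 genes was held in the RefSeq promoter table (GRCm38.p6), as 30 windows of 250 bases. No window was given for *Fdft1*, *Fdps*, *Sqle*, *Scd1*, *Scd2*, *Fads1* and *Stard4*. Windows were searched on both strands for CGCATGCG, the core of the Nrf1 palindrome; TGCGCA, an arm of the Nrf1 site, which can overlap that core; CACCCCAC, the core of the sterol regulatory element; CCAAT, the NF-Y box, which reads ATTGG on the other strand; and CACGTG, the E-box. The stretches of 5 genes are shown because they hold the sterol element core (*Hmgcs1*, *Acat2*), hold the Nrf1 core (*Mvd*), or lie before a cyclase and a regulator that fell (*Lss*, *Insig1*). Each runs 5′ to 3′ along the strand of the gene and ends before the first annotated exon base, and capitals mark the motifs. They lie at chr13:119690101-119690350 (plus strand), chr17:12960748-12960975 (minus), chr8:122443423-122443672 (minus), chr10:76531355-76531587 (plus) and chr5:28071162-28071362 (plus), in the order printed.
Hmgcs1: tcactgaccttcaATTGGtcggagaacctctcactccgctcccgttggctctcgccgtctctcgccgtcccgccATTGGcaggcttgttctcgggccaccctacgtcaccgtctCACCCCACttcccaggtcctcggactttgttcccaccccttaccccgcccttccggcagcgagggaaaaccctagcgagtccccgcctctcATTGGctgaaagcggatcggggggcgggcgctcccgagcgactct
Acat2: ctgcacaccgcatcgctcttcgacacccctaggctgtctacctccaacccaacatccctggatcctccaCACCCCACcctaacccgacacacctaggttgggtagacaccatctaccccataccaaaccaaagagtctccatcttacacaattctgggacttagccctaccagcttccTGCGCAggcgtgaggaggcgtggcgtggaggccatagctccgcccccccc
Mvd: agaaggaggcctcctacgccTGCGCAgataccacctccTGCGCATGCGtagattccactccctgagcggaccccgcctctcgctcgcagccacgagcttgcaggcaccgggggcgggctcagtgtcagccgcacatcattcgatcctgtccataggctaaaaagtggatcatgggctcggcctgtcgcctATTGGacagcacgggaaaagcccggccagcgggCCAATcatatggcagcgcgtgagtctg
Lss: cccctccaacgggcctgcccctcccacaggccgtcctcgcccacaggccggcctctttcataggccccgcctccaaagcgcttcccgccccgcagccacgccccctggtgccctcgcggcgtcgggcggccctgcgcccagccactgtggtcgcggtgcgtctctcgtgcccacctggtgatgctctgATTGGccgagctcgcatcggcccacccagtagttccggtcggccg
Insig1: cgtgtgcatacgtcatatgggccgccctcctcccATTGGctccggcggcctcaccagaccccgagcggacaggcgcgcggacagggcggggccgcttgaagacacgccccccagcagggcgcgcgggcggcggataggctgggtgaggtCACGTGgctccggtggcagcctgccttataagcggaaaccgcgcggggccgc

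The NF-Y box was present in 19 of the 30 windows (63.3%) and in 33.8% of all 32851 windows in the table. It was found for 18 of the 22 genes, all with a window except *Acat2*, *Scap*, *Acaca* and *Fads2*. The sterol element core was in 2 of the 30 windows (6.67%), before *Hmgcs1* and *Acat2*, and in 2.58% of all windows. The E-box was in 5 windows (16.7%), against 6.02% of all windows, before *Hsd17b7*, *Sc5d*, *Dhcr7*, *Scap* and *Insig1*. The Nrf1 core was in 2 windows (6.67%), before *Mvd* and *Scap*, against 1.55% of all windows, and the arm of the Nrf1 site in 5 (16.7%), before *Mvd*, *Acat2*, *Lss*, *Dhcr7* and *Scap*, against 6.43%. These counts include matches that lie past the first annotated exon base of the gene, since a RefSeq start can lie downstream of it. They are every NF-Y box of *Idi1*, *Cyp51*, *Tm7sf2* and *Dhcr7*, an NF-Y box each of *Hsd17b7* and *Srebf1*, the E-boxes of *Scap* and *Dhcr7*, the Nrf1 core of *Scap* and the Nrf1 arms of *Lss* and *Scap*, so the printed *Lss* stretch ends before its arm. These matches describe the letters in the windows only.

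Among the enzymes of the mevalonate pathway, 5 of 7 fell (71.4%, against 8.04% of all genes tested). Their summed level was 958 and 932 CPM in WT and 522 and 476 CPM in Nrf1-CKO, a mean of 52.8% of WT, and the median log2 fold change was -0.65. *Acat2* encodes the cytosolic thiolase that joins acetyl-CoA units at the start of the pathway. It was at 93.8 and 98.7 CPM in WT and 52.3 and 52.6 CPM in Nrf1-CKO. Its log2 fold change was -0.88 ± 0.08 (standard error derived from the edgeR test statistic, SE hereafter, adjusted p = 0.000153). The next enzyme, the HMG-CoA synthase *Hmgcs1*, whose upstream stretch holds the sterol element core, was at 708 and 672 CPM in WT and 358 and 308 CPM in Nrf1-CKO. The log2 fold change of *Hmgcs1* was -1.05 ± 0.09 (SE, adjusted p = 0.000187), and the Nrf1-CKO mean was 48.3% ± 5.06 (SD, n = 2) of WT. Both genes had Nrf1-CKO libraries well below the WT range.

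The kinases that follow were not called. Mevalonate kinase, *Mvk*, was at 53.6 and 59.7 CPM in WT and 41.3 and 44.3 CPM in Nrf1-CKO, with a log2 fold change of -0.40 ± 0.09 (SE, adjusted p = 0.0101) that did not reach 1.4-fold. Phosphomevalonate kinase, *Pmvk*, was the one gene of the 29 with a positive log2 fold change, 0.11 ± 0.11 (SE, adjusted p = 0.534). Its levels of 22.9 and 20.5 CPM in WT and 22.4 and 24.3 CPM in Nrf1-CKO overlapped. In the remaining steps of the pathway all 3 enzymes fell. *Mvd*, the decarboxylase that makes isopentenyl diphosphate, was at 41.6 and 42.1 CPM in WT and 26.8 and 26.7 CPM in Nrf1-CKO, a log2 fold change of -0.65 ± 0.08 (SE, adjusted p = 0.000794). *Idi1*, the isomerase that supplies the second isoprenoid unit, was at 11.3 and 10.7 CPM in WT and 7.62 and 7.34 CPM in Nrf1-CKO, a log2 fold change of -0.56 ± 0.13 (SE, adjusted p = 0.0168). The call of *Idi1* was lost in limma on the deposited values (-0.35) and when tested against a fold of 1.4 with glmTreat (adjusted p = 0.665). *Fdps*, which joins these units into farnesyl diphosphate, was at 27.8 and 27.9 CPM in WT and 13.7 and 12.1 CPM in Nrf1-CKO, a log2 fold change of -1.11 ± 0.11 (SE, adjusted p = 0.000252). For *Fdps*, 26.7% of the exon bases are shared with another gene on the same strand, so its count is less certain.

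Of the 10 enzymes that turn farnesyl diphosphate into cholesterol, 8 fell (80.0%, against 8.04% of all genes tested). The genotypes were separated for 62.5% of all genes tested, in either direction, and for all 10 of these enzymes. Their summed level was 861 and 852 CPM in WT and 500 and 467 CPM in Nrf1-CKO, a mean of 56.5% of WT, with a median log2 fold change of -0.78. *Fdft1*, the squalene synthase that takes farnesyl diphosphate into the sterol branch, was at 115 and 118 CPM in WT and 55.5 and 49.2 CPM in Nrf1-CKO. Its log2 fold change was -1.15 ± 0.09 (SE, adjusted p = 9.88e-05), and 18.3% of its exon bases overlap *Ctsb* on the opposite strand. *Sqle*, the squalene epoxidase and a known control point of the branch, was at 202 and 198 CPM in WT and 122 and 117 CPM in Nrf1-CKO, a log2 fold change of -0.74 ± 0.07 (SE, adjusted p = 0.000268). *Lss*, the cyclase that closes the ring to give lanosterol, was at 106 and 112 CPM in WT and 49.2 and 43.0 CPM in Nrf1-CKO. For *Lss* the log2 fold change was -1.24 ± 0.09 (SE, adjusted p = 9.88e-05), and the Nrf1-CKO mean was 42.3% ± 4.03 (SD, n = 2) of WT. These 3 genes form the entry into sterols, and each lay below WT in both Nrf1-CKO libraries.

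Next come the enzymes that trim lanosterol. *Cyp51*, the lanosterol demethylase, was at 212 and 198 CPM in WT and 120 and 112 CPM in Nrf1-CKO, a log2 fold change of -0.82 ± 0.08 (SE, adjusted p = 0.000252). *Tm7sf2*, a sterol reductase, had 1182 and 1108 reads in WT and 642 and 649 reads in Nrf1-CKO, and its log2 fold change was -0.87 ± 0.13 (SE, adjusted p = 0.00159). *Nsdhl* and *Hsd17b7* act together in removing methyl groups from the ring. *Nsdhl* was at 48.4 and 47.0 CPM in WT and 27.5 and 24.6 CPM in Nrf1-CKO (log2 fold change -0.87 ± 0.09 SE, adjusted p = 0.000298). *Hsd17b7* was at 39.5 and 40.7 CPM in WT and 25.4 and 22.8 CPM in Nrf1-CKO (log2 fold change -0.73 ± 0.09 SE, adjusted p = 0.000779). For these 4 genes the Nrf1-CKO means lay between 54.7% and 60.2% of WT.

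Of the last 3 enzymes *Dhcr7* was called. *Ebp*, the isomerase that shifts the double bond of the ring, was at 27.6 and 24.9 CPM in WT and 19.7 and 23.5 CPM in Nrf1-CKO, with a log2 fold change of -0.28 ± 0.12 (SE, adjusted p = 0.125). *Sc5d*, the desaturase of the next step, had 3355 and 2917 reads in WT and 2401 and 2397 reads in Nrf1-CKO, with a log2 fold change of -0.42 ± 0.08 (SE, adjusted p = 0.00681). Neither reached 1.4-fold, although the libraries of the genotypes were separated for both, as they were for 62.5% of all genes tested. *Dhcr7*, the reductase that finishes cholesterol, fell from 59.2 and 58.8 CPM in WT to 43.6 and 38.6 CPM in Nrf1-CKO, a log2 fold change of -0.52 ± 0.09 (SE, adjusted p = 0.00267). Without Nrf1-CKO replicate 2 its log2 fold change was -0.44, and the call was lost, as it was under upper-quartile scaling, glmTreat and limma.

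**Figure D2:**
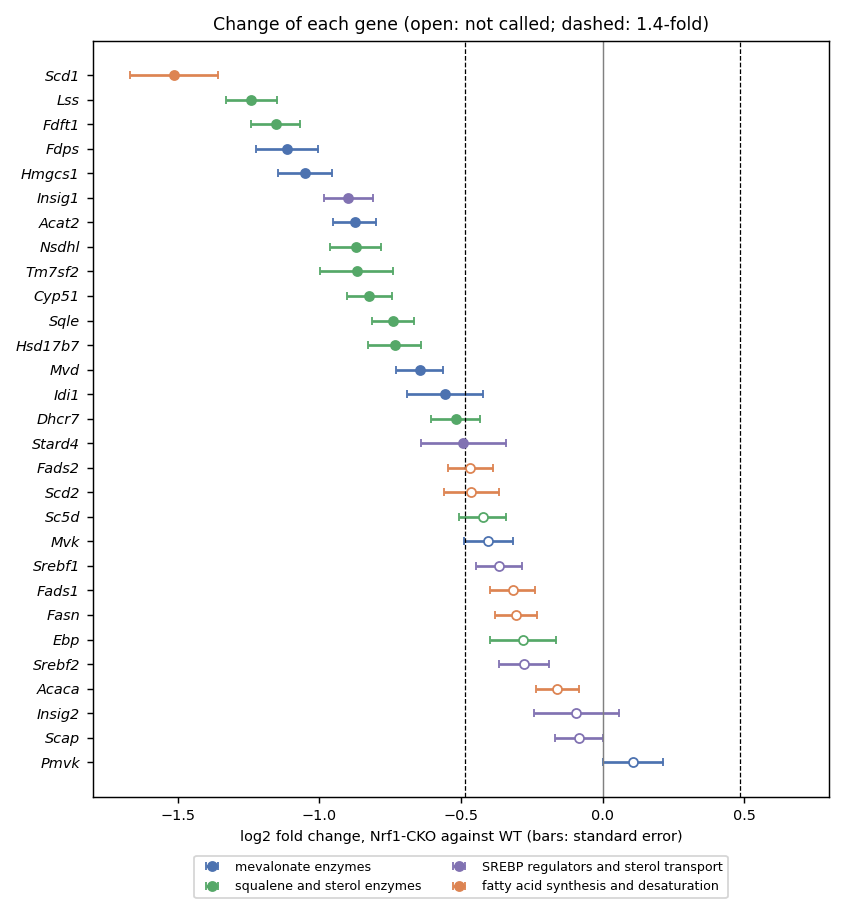
Log2 fold change of each gene in Nrf1-CKO against WT, ordered from the lowest, with colours for the 4 roles. Bars are the standard error derived from the edgeR test statistic. Filled points were called and dashed lines mark 1.4-fold. The lowest is Scd1 at -1.51, Pmvk at 0.11 is alone above zero, and the 16 filled points all lie left of the lower dashed line.

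Of the 6 regulators and sterol carriers, 2 fell (33.3%, against 8.04% of all genes tested). *Insig1*, which holds the SREBPs back and is itself a well known SREBP target, was at 107 and 118 CPM in WT and 63.1 and 57.6 CPM in Nrf1-CKO. Its log2 fold change was -0.90 ± 0.09 (SE, adjusted p = 0.000249). *Stard4*, which carries cholesterol between membranes, was at 23.9 and 21.7 CPM in WT and 18.7 and 13.7 CPM in Nrf1-CKO. Its log2 fold change of -0.49 ± 0.15 (SE, adjusted p = 0.0454) lay just past the limit, and the call was lost without WT replicate 1 (-0.42) or without Nrf1-CKO replicate 2 (-0.29), and under upper-quartile scaling, glmTreat and limma. The Nrf1-CKO libraries of *Stard4* differed from each other by more, in proportion, than those of *Insig1*.

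The SREBP genes themselves were not called. *Srebf2*, whose protein mainly drives sterol synthesis, was at 256 and 224 CPM in WT and 203 and 193 CPM in Nrf1-CKO, with a log2 fold change of -0.28 ± 0.09 (SE, adjusted p = 0.0544). *Srebf1*, whose proteins mainly drive fatty acid synthesis, was at 165 and 168 CPM in WT and 122 and 136 CPM in Nrf1-CKO, with a log2 fold change of -0.37 ± 0.08 (SE, adjusted p = 0.0118). In both, the Nrf1-CKO libraries were below WT by less than 1.4-fold. *Scap*, the escort of the SREBPs, was at 117 and 119 CPM in WT and 104 and 118 CPM in Nrf1-CKO (log2 fold change -0.08 ± 0.09 SE, adjusted p = 0.543). *Insig2*, the second Insig gene, was at 17.1 and 13.3 CPM in WT and 15.3 and 13.2 CPM in Nrf1-CKO (log2 fold change -0.09 ± 0.15 SE, adjusted p = 0.711). No difference of *Scap* or *Insig2* was detectable between these libraries, and the sign of each changed when single libraries were left out.

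Of the 6 genes of fatty acid synthesis and desaturation, *Scd1* alone was called (16.7%, against 8.04% of all genes tested called lower). It had the lowest log2 fold change of the 29 genes. *Scd1*, a desaturase that makes oleate and palmitoleate, was at 39.2 and 38.4 CPM in WT and 16.0 and 11.2 CPM in Nrf1-CKO. Its log2 fold change was -1.51 ± 0.16 (SE, adjusted p = 0.000294), and the Nrf1-CKO mean was 35.1% ± 8.89 (SD, n = 2) of WT. *Scd2*, the desaturase form that is abundant in the developing nervous system, was at 1774 and 1624 CPM in WT and 1331 and 1134 CPM in Nrf1-CKO. Its log2 fold change of -0.46 ± 0.10 (SE, adjusted p = 0.0091) did not reach 1.4-fold with all libraries, but was called without WT replicate 2 (-0.52) or without Nrf1-CKO replicate 1 (-0.58). The *Scd* genes resemble each other in sequence, and alignments to more than 1 place were not counted, so the split of reads between them is uncertain.

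The other members of this group had values below WT in both Nrf1-CKO libraries and did not reach 1.4-fold. *Fasn*, the fatty acid synthase, was at 1628 and 1642 CPM in WT and 1305 and 1341 CPM in Nrf1-CKO, with a log2 fold change of -0.31 ± 0.07 (SE, adjusted p = 0.0182). *Acaca*, the acetyl-CoA carboxylase that supplies its substrate, was at 120 and 113 CPM in WT and 105 and 103 CPM in Nrf1-CKO, with a log2 fold change of -0.16 ± 0.08 (SE, adjusted p = 0.17). *Fads1* and *Fads2* introduce double bonds into polyunsaturated fatty acids and lie beside each other on chromosome 19. *Fads1* was at 266 and 268 CPM in WT and 205 and 223 CPM in Nrf1-CKO (log2 fold change -0.32 ± 0.08 SE, adjusted p = 0.0205). *Fads2* was at 196 and 193 CPM in WT and 134 and 148 CPM in Nrf1-CKO (log2 fold change -0.47 ± 0.08 SE, adjusted p = 0.00332), and was called without Nrf1-CKO replicate 2 (-0.54). The summed level of the 6 genes was 4023 and 3879 CPM in WT and 3096 and 2960 CPM in Nrf1-CKO, a mean of 76.6% of WT, of which *Scd2* and *Fasn* made up most.

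Per kilobase of exon, the levels of the 29 genes in WT spanned 3.14 to 311 CPM. *Scd2* was highest at 311 ± 19.4 CPM per kilobase (SD, n = 2) in WT and 226 ± 25.5 in Nrf1-CKO. It was followed in WT by *Hmgcs1* at 150 ± 5.41 and *Fasn* at 149 ± 0.845, which did not differ beyond their spread. In Nrf1-CKO these genes stood apart, with *Hmgcs1* at 72.5 ± 7.60 and *Fasn* at 121 ± 2.35 CPM per kilobase. At the low end *Idi1* was at 3.14 ± 0.124 and *Tm7sf2* at 3.23 ± 0.232 in WT, again within their spread. Exon lengths join all annotated exons of a gene, so a gene with many alternative exons appears lower.

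**Figure D3:**
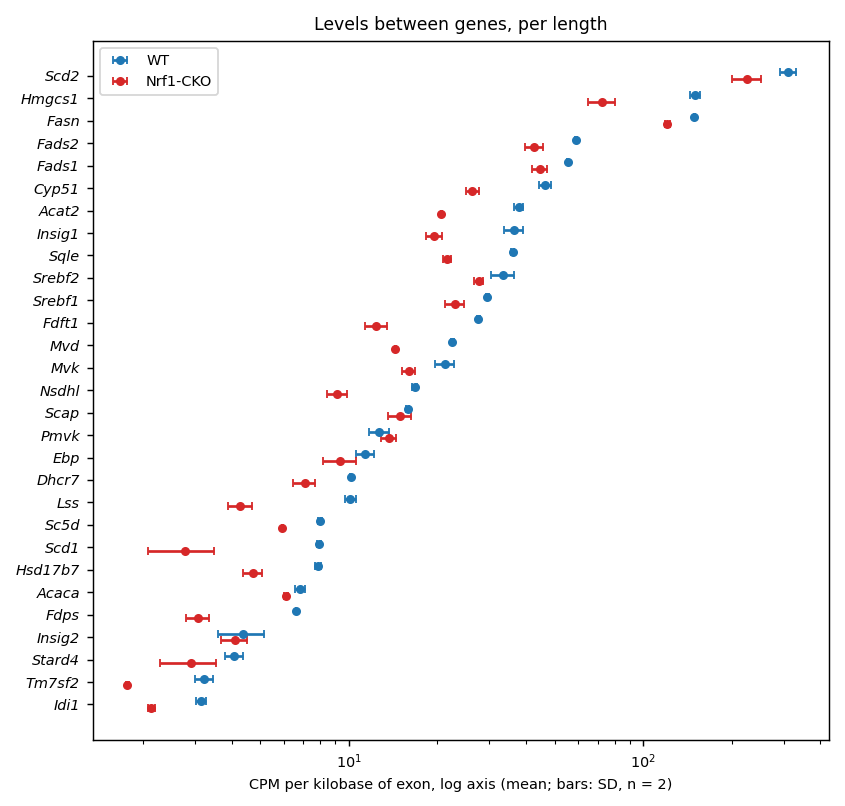
Level of each gene as CPM per kilobase of exon on a log axis, mean and SD of the 2 libraries per genotype, WT in blue and Nrf1-CKO in red, ordered by the WT level. Scd2 is highest at 311 in WT, and Idi1 lowest at 3.14.

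The Nrf1-CKO libraries differed from each other. Of the 29 genes, 18 were lower in Nrf1-CKO replicate 2 than in replicate 1, among them 14 of the 16 called genes, all but *Acat2* and *Tm7sf2*. *Scd1* was at 41.3% of the WT mean in replicate 1 and 28.8% in replicate 2, and *Stard4* at 82.0% and 60.2%. Between the WT libraries, 15 of the 29 genes were lower in replicate 2. With any single library left out, between 15 and 17 of the 29 genes were called lower and none higher. Reads counted on genes ranged from 74577660 to 85933945 per library, and the least read of the 29 genes, *Idi1*, still had 607 reads in its lowest library. *Nrf1* itself was at 103 and 105 CPM in WT and 103 and 100.1 CPM in Nrf1-CKO, and since a gene count includes every exon, the loss of exon 4 could not be checked with it.

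Lists of marker genes moved with the genotype as well. The retina label held: the 10 progenitor genes summed to 8041 and 8603 CPM in WT and to 6253 and 6858 CPM in Nrf1-CKO, with 2 called lower. Of 10 retinal ganglion cell markers 9 fell, and the list went from 1775 and 2006 CPM to 712 and 550 CPM. Of 6 photoreceptor precursor markers 3 fell, with sums of 331 and 332 CPM in WT and 277 and 267 CPM in Nrf1-CKO. Markers of tissues outside the neural retina were mostly higher. All 11 lens markers tested rose, from a sum of 175 and 491 CPM in WT to 10197 and 4161 CPM in Nrf1-CKO, while *Dnase2b*, which lens fibre cells use to clear their nuclei, had 0 reads in every library. All 10 macrophage and microglia markers rose, from 82.4 and 76.4 CPM to 248 and 298 CPM. Pigment epithelium markers had 5 of 7 called higher, from 212 and 152 CPM to 383 and 407 CPM, with 0 to 4 reads of *Rpe65* per library. Of 8 endothelial markers 6 rose and 1 fell, with sums of 270 and 273 CPM in WT and 290 and 282 CPM in Nrf1-CKO. Periocular mesenchyme markers had 6 of 10 called higher, from 267 and 183 CPM to 384 and 329 CPM. Erythroid markers had 3 of 5 called higher, from 490 and 574 CPM to 637 and 641 CPM, with *Hba-a1* and *Hbb-bt* at 0 reads in every library. Alignments to multiple places were not counted, so 0 reads of these globin genes need not mean absence.

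The part of these tissues in the fall of the sterol genes was not tested. In bulk tissue, fewer cells of a type and less RNA per cell cannot be told apart. The Nrf1-CKO library with the higher lens sum, replicate 1, had 4645 CPM over the 29 genes, and the other 4435 CPM. The ganglion cell list had the same order, with 712 CPM in replicate 1 and 550 CPM in replicate 2. Without Nrf1-CKO replicate 1 the median log2 fold change of the 29 genes was -0.61.

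**Figure D4:**
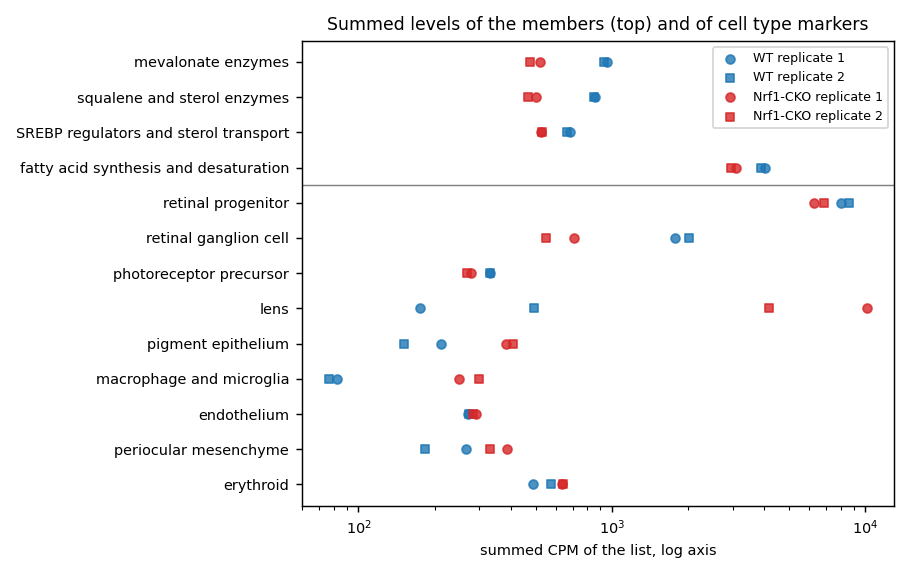
Summed CPM, on a log axis, of the 4 roles among the 29 genes (above the line) and of 9 marker lists (below it) in each library, WT in blue and Nrf1-CKO in red. The sterol gene sums are lower in Nrf1-CKO, ganglion cell markers drop from 1775 and 2006 CPM to 712 and 550 CPM, and lens markers reach 10197 CPM.

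Lists of 87 other lipid genes were set beside the 29. Of 85 tested, 10 fell and 8 rose, where 8.04% and 12.8% of all genes tested were called. Of 15 other sterol synthesis and SREBP genes tested, 4 fell and none rose, with a median log2 fold change of -0.12. Among those that fell, *Msmo1*, a methyl oxidase of the sterol branch, had 11077 and 8454 reads in WT and 5142 and 4803 in Nrf1-CKO, a log2 fold change of -1.004 ± 0.08 (SE, adjusted p = 0.000144). The proteases that release the SREBPs, *Mbtps1* and *Mbtps2*, were not called, with log2 fold changes of 0.18 and 0.04 (adjusted p = 0.161 and 0.86).

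Genes of sterol efflux, storage and the liver X receptors (LXRs), which respond to sterol derivatives, had a median log2 fold change of 0.17 over 21 tested. Of these, 3 were called higher (14.3%) and 2 lower (9.52%), near the 12.8% and 8.04% of all genes tested. *Abca1*, the transporter that passes cholesterol to lipoproteins and a known LXR target, had 1925 and 1586 reads in WT and 7484 and 7740 in Nrf1-CKO, a log2 fold change of 2.08 ± 0.08 (SE, adjusted p = 1.86e-05). *Mylip*, a ubiquitin ligase and known LXR target, had 1070 and 767 reads in WT and 1462 and 1387 in Nrf1-CKO, a log2 fold change of 0.61 ± 0.13 (SE, adjusted p = 0.00877). *Nr1h3*, which encodes LXR alpha, had 257 and 202 reads in WT and 305 and 386 in Nrf1-CKO, a log2 fold change of 0.56 ± 0.22 (SE, adjusted p = 0.111). *Abcg1*, also an efflux transporter and an LXR target, was not called, at a log2 fold change of 0.18 (adjusted p = 0.253). The lipoprotein receptors *Vldlr* and *Lrp8*, which are also the reelin receptors of neurons, fell. *Vldlr* had 4066 and 3924 reads in WT and 2850 and 2050 in Nrf1-CKO, a log2 fold change of -0.75 ± 0.14 (SE, adjusted p = 0.00617), and *Lrp8* a log2 fold change of -0.60 (adjusted p = 0.00268). *Abca1* is also abundant in macrophages, whose markers rose, and the part of those cells in its rise was not tested.

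Of 24 other fatty acid synthesis genes tested, 2 fell (8.33%) and 3 rose (12.5%), at a median log2 fold change of -0.13. These shares were near the 8.04% and 12.8% of all genes tested. *Elovl6*, which lengthens the products of the fatty acid synthase, had 11080 and 8956 reads in WT and 7119 and 6403 in Nrf1-CKO, a log2 fold change of -0.60 ± 0.08 (SE, adjusted p = 0.00112). The other was *Tecr*, the reductase of the elongation cycle (log2 fold change -0.49, adjusted p = 0.00205). *Me1*, the malic enzyme that supplies NADPH, had 204 and 92 reads in WT and 256 and 235 in Nrf1-CKO, a log2 fold change of 0.73 ± 0.33 (SE, adjusted p = 0.158). *Mlxipl*, a glucose-responsive transcription factor, had 116 and 69 reads in WT and 136 and 167 in Nrf1-CKO, a log2 fold change of 0.69 ± 0.35 (SE, adjusted p = 0.196). The third was *Acacb*, the mitochondrial acetyl-CoA carboxylase (log2 fold change 0.52, adjusted p = 0.0339). Over all 85 genes, the count of higher calls went from 8 to 5 without WT replicate 2, to 4 without Nrf1-CKO replicate 1 and to 5 without Nrf1-CKO replicate 2, and the 10 lower calls stayed between 10 and 11.

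**Figure D5:**
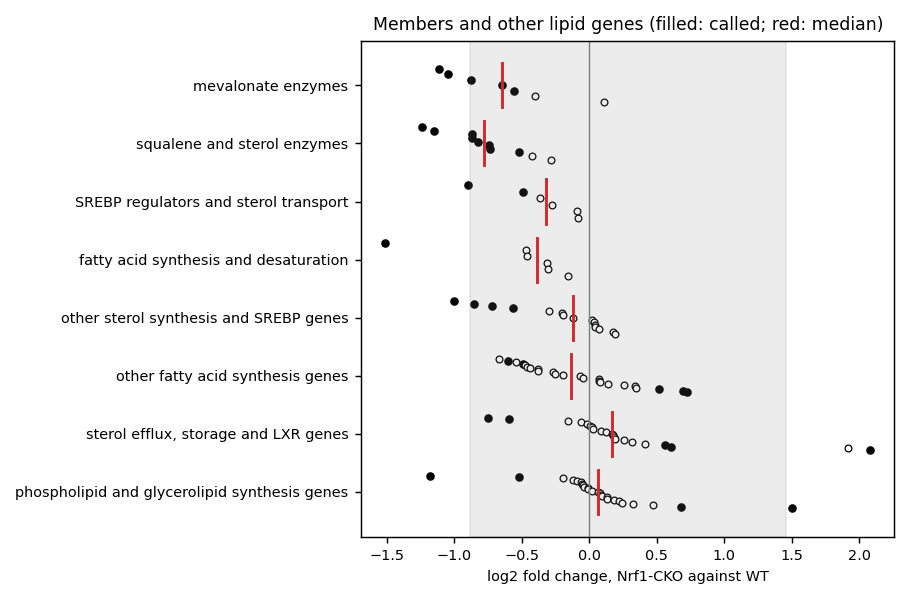
Log2 fold change of each gene in the 4 role groups of the 29 genes and in the 4 lists of other lipid genes, with called genes filled, list medians in red, and the 5th to 95th percentile of all tested genes, -0.88 to 1.46, shaded. The medians of the role groups lie between -0.78 and -0.32, and those of the other lists between -0.13 and 0.17.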

How the data were processed

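RNA was made from pooled E13.5 retinas and sequenced as 100-nt paired-end reads. Reads were aligned by the authors with TopHat 2.7.2 to the mm10 genome, and they deposited whole-number HTSeq counts per gene, without normalization. The strand setting and the annotation release are not given in the sources used here, so reads of overlapping genes cannot be told apart. HTSeq summary rows, 74.0% to 75.0% of entries, were left out. The deposited log2 values of the authors served as an alternative. The submitters' processing notes also list DESeq and limma without a role, so which tool made these values is not given in the sources used here.

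Genes were filtered with filterByExpr at a minimum count of 10, scaled with TMM factors and tested with edgeR 4.0.16 in R 4.3.3 (quasi-likelihood test, genotype only, Benjamini-Hochberg over 15762 genes). Calls used the thresholds of the study's methods, which applied Cuffdiff to alignments. In simulated counts, 99.5% of 200 changed genes were recovered among 15742 tested, and 53 unchanged genes were called. The recovered share was not split by fold, and recovery near the limit of 1.4-fold was not tested separately. CPM are TMM-scaled. DESeq2 1.42.0 and limma 3.58.1 were alternatives.

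Gene positions and exon lengths came from GENCODE M21 (GRCm38, the same assembly as mm10). All 29 members were named, and of the other lipid lists up to 6 called genes per direction with the largest change and a mean of at least 1 CPM, some of which are not reported here. *Lrp8*, *Tecr*, *Acacb*, *Pcyt2*, *Lpin3*, *Mbtps1*, *Mbtps2* and *Abcg1* were named after their values were seen. The members and lists were chosen with earlier results of these data known. All 87 other genes were matched, *Erg28*, *Hacd1*, *Hacd2* and *Hacd3* by older symbols. Replicates differed by more than sampling noise. Standard errors are the absolute log2 fold change divided by the square root of the F statistic of the quasi-likelihood test. They rest on 2 pools per genotype, and PCR copies are not independent molecules.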

Additional observations from a re-analysis of the deposited data

How the results depend on the processing

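Of the 16 genes called lower, 13 kept the call under all 14 alternatives. *Dhcr7* and *Stard4* lost it under upper-quartile scaling, and *Dhcr7*, *Stard4* and *Idi1* lost it when the test was made against a fold of 1.4 (glmTreat) and in limma on the deposited log2 values. *Fads2* was also called with library size as the only scaling. The members called lower numbered 13 to 17 over the alternatives that kept the minimum fold, and 23 at an adjusted p of at most 0.05 with no minimum fold. No member was called higher under any of them. The median log2 fold change of the members was -0.46 in limma and -0.61 to -0.51 with 1 library left out. With 1 library left out, *Insig2* ranged from -0.26 to 0.11, turning sign without WT replicate 1 (0.11) and without Nrf1-CKO replicate 2 (0.0060), and *Scap* from -0.18 to 0.0073, turning sign without Nrf1-CKO replicate 1. The other lipid genes called higher, 8 in all, went to 3 at an adjusted p of at most 0.05, 1 under glmTreat, 1 in limma and 4 to 8 with 1 library left out, and those called lower, 10 in all, went to 5 under glmTreat. Over all genes, 743 were called lower and 1188 higher under glmTreat, and 723 and 945 in limma, against 1268 and 2024. The cause of these shifts was not tested. The replicate numbers did not pair the libraries (correlation of deviations -0.0025 over 2 pairs). With the number as a replicate block, 16 members were called lower and 0 higher, at a median of -0.52. With 2 libraries per genotype, the standard errors of the 29 log2 fold changes ran from 0.07 to 0.16.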

Other observations

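The genes of phospholipid and glycerolipid synthesis, which build membranes from fatty acids, had 2 of 25 lower and 2 higher (8.0% each), where 8.04% of all genes tested were called lower and 12.8% higher. Their median log2 fold change was 0.06, and 0.00073 over all genes tested. Their summed level was 1221 and 1200.1 CPM in WT and 1196 and 1253 CPM in Nrf1-CKO. *Pcyt1b* and *Pcyt2*, which encode enzymes that activate choline and ethanolamine for phospholipid synthesis, were the 2 that fell. *Pcyt1b* had 2274 and 1851 reads in WT and 1148 and 714 in Nrf1-CKO, a log2 fold change of -1.18 ± 0.19 (standard error SE, edgeR adjusted p = 0.00256). *Pcyt2* had 3382 and 2879 reads in WT and 2262 and 2204 in Nrf1-CKO, a log2 fold change of -0.52 ± 0.08 (SE, adjusted p = 0.00248). In both, each Nrf1-CKO library was below each WT library. *Cds1*, which makes CDP-diacylglycerol, had 258 and 157 reads in WT and 360 and 312 in Nrf1-CKO, a log2 fold change of 0.68 ± 0.25 (SE, adjusted p = 0.0831). *Lpin3*, a phosphatidate phosphatase, was sparse, with 32 and 11 reads in WT and 55 and 67 in Nrf1-CKO (adjusted p = 0.118).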
